A study of Mus musculus with 17 samples.

Results

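The piRNA loci were the 48 entries of the deposited count table whose names contain piR, out of 1487 entries in all, and the other 1439 were mature miRNAs. The 48 loci carried 32 piRNA names: 22 names had 1 locus each, and 10 names were shared by 26 loci. The loci were 25 to 32 bases long, with a median of 29 bases, and took 9.58% of all counts. They were grouped by the coordinates in their names into a block of 5 loci on chromosome 3 (5843412 to 5843811), a block of 2 on chromosome 18 (54824345 to 54824734), a block of 3 on chromosome 2 (5296560 to 5296603), a block of 6 on chromosome 17 (39454691 to 39455691), and 32 loci elsewhere. Coordinates are those in the deposited names. Their genome build is not given in the sources used here, so no gene annotation was attached to a locus.

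PIWI-interacting RNAs (piRNAs) are small RNAs, somewhat longer than miRNAs, that are loaded into PIWI proteins, a germline branch of the Argonaute family. In germ cells they guide PIWI proteins to transposon transcripts and to matching chromatin, which keeps transposons silent, and most are cut from long single-stranded precursors made at clustered loci. They are best known from the testis. A count at a locus that bears a piRNA name records a small RNA read assigned to that name and is not a measurement of PIWI binding.

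Small RNAs were sequenced from exosomes, the membrane vesicles that cells release, isolated from feces of mice. Every library came from IL-10 KO mice with a C57BL/6J background, which lack the anti-inflammatory cytokine interleukin 10 in all cells and are studied for the colitis they develop. They arrived at 4 weeks of age and were housed 1 to a cage. Ages at the start-point and the end-point are not given in the sources used here. The start-point group held 10 libraries from 10 mice (7 male, 3 female) and the end-point group 7 libraries (5 male, 2 female). Of the 10 mice, 6 had libraries at both time points. End-point libraries 1 and 2 both carry the label of mouse 1, so the 7 end-point libraries come from 6 mice by their labels. Wild-type mice were not analysed here.

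Library totals ran from 32320 to 178075 counts. Only end-point libraries 1, 3 and 7 held under 75000, so in these 3 a low total and the end-point cannot be told apart. End-point library 1 stood apart: only 0.533% of its 54747 counts were piRNA counts and 35 of the 48 loci had none, where a count of 0 allows up to 55 CPM (counts per 1000000 counts of the library). Exosomes mix RNA from many cells, so fewer cells of a type and less RNA per cell cannot be told apart. Of 8 intestinal-epithelium miRNAs, none at 0 in every library, 3 were called higher and 3 lower at the end-point. That is 75%, beside 31.6% of all tested small RNAs. Their summed level spanned 3226 to 19690 CPM at the start-point and 2970 to 38180 CPM at the end-point. Of 4 leukocyte miRNAs, none of them at 0 in every library either, 1 of 3 tested was called (miR-223-3p, higher), or 33.3%. Their summed levels were 386.5 to 3361 CPM and 237.5 to 3114 CPM. The part of these marker differences in the piRNA results was not tested.

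piRNA counts as a whole did not separate the time points. They took between 1.35% and 24.15% of a start-point library, with a median of 4.73% and a mean of 8.25% ± 8.15 (SD, n = 10). In end-point libraries they took between 0.533% and 20.24%, with a median of 10.3% and a mean of 9.72% ± 6.67 (SD, n = 7). The highest shares were in start-point libraries 5 and 3 and end-point library 4, and the ranges overlapped over most of their length. With each library thinned to 32320 counts, 31 to 43 of the 48 loci were detected at the start-point and 12 to 38 at the end-point.

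The start-point libraries differed widely among themselves. Of the 33 tested loci, start-point libraries 2, 3, 5 and 9 were among the 4 highest of the 10 start-point libraries at 31, 29, 31 and 29. Each of the other 6 was among them at 0 to 6. Over all 48 loci the counts were 42, 41, 43 and 42, against 6 to 12. Libraries tied at 0 counted among the highest there, which raised all 10 counts. Over the 1439 miRNAs, with ties counted alike, the same libraries were among the 4 highest for 41.8%, 29.9%, 26.4% and 67.3%. High values in these libraries ran across blocks and chromosomes. Library 2 had the lowest total of the 10, at 87527 counts, and library 5 one of 152643, so the 4 did not share a depth.

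**Figure D1:**
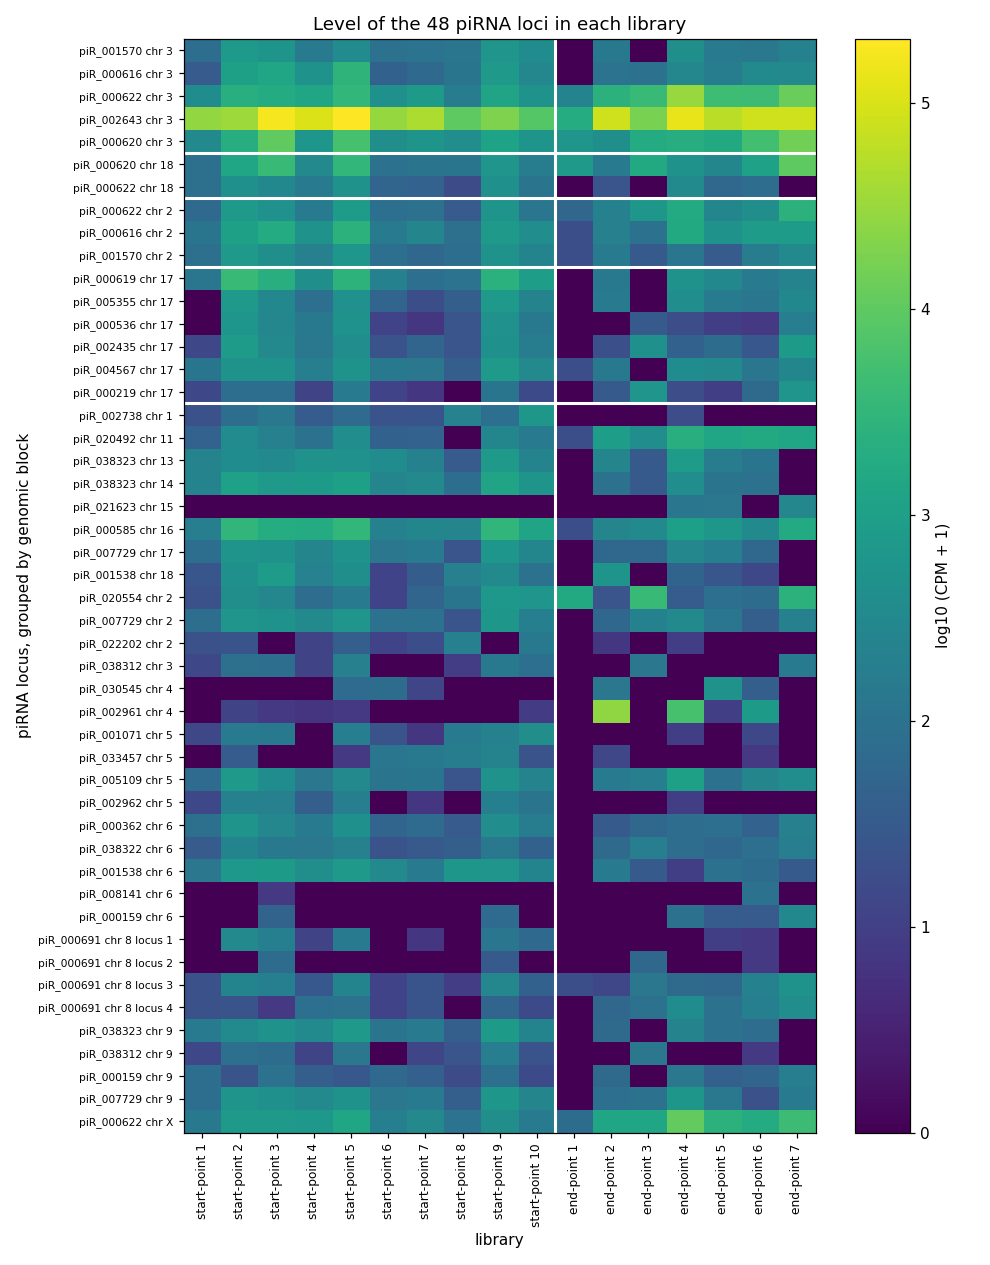
Level of each of the 48 piRNA loci (rows, grouped by block, white lines between blocks) in each of the 17 libraries (columns, start-point to the left of the white line), as log10 of CPM plus 1. The bright row is piR_002643, start-point libraries 2, 3, 5 and 9 are the lighter columns on the left, and end-point library 1 is the dark column with 35 loci at 0.

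At the threshold of an adjusted p under 0.05, 7 piRNA loci differed between time points, 6 higher and 1 lower at the end-point. The test was edgeR's quasi-likelihood F-test across all small RNAs with Benjamini-Hochberg adjustment, and 33 loci under 21 names passed its filter on low counts. The share called, 21.2% of the 33, was below the 31.6% called among all 1270 small RNAs tested. Over all tested small RNAs 16.1% were higher and 15.5% lower. The CPM ranges of the time points did not overlap for 0 of the 33 loci, beside 5.59% of all tested small RNAs. The median log2 fold change was 0.01 over the 33 loci and -0.19 over all tested small RNAs, with 17 loci above 0 and 16 below. When libraries were scaled by their totals alone, the medians became -0.78 and -0.68 and the calls 5 higher and 5 lower (30.3% of the 33 loci, beside 35.1% of all tested small RNAs), so direction over the loci as a group depended on the scaling. Without the 3 end-point libraries under 75000 counts 42 loci passed the filter and 13 were called, 8 higher and 5 lower, with 5 of the 7 loci among them. That is 31.0% of the 42, beside 28.1% of the small RNAs in that fit, so the higher count is near the background. For mouse 1, the mouse with 2 end-point libraries by label, within-mouse directions below are given for each library, and the other 5 mice had 1 library per time point.

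**Figure D2:**
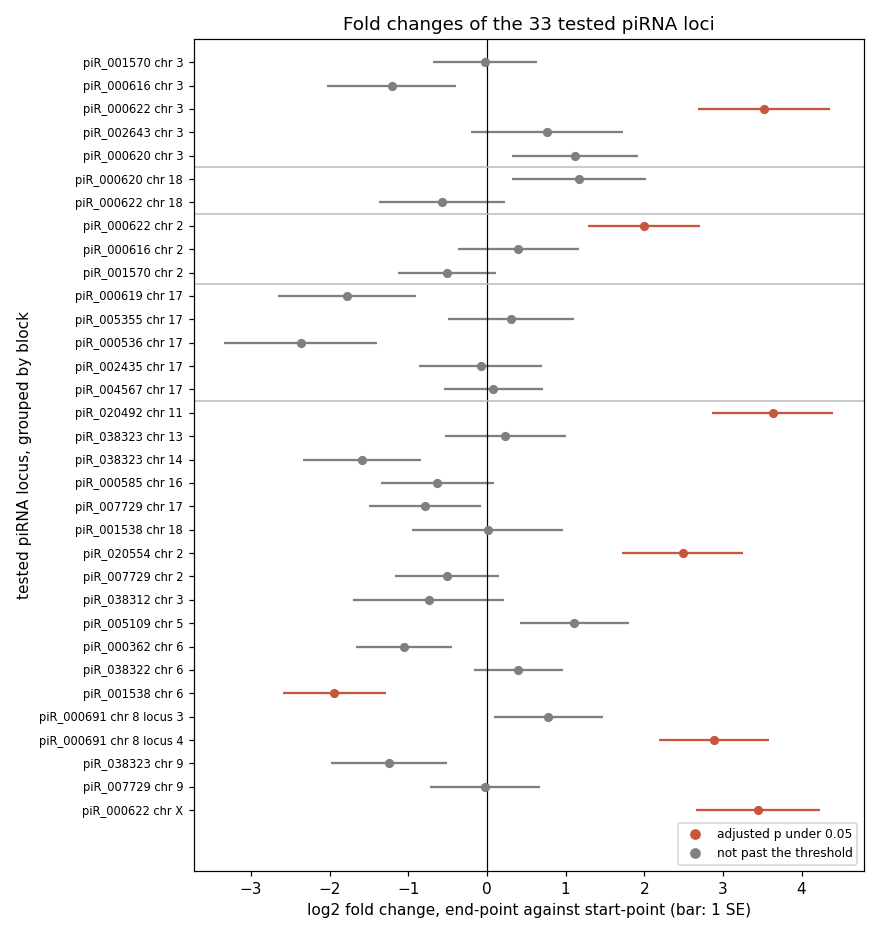
Log2 fold change of each of the 33 tested piRNA loci (rows, grouped by block, grey lines between blocks), end-point against start-point, with bars of 1 standard error and called loci in red. Of the 7 called loci, 6 lie right of 0 and piR_001538 on chromosome 6 lies left of it.

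The chromosome 3 block held 85.1% of all piRNA counts in its 5 loci. It spans 400 bases, 5843412 to 5843811 on the plus strand. It took 0.994% to 21.6% of start-point libraries (median 3.51%) and 0.272% to 17.2% of end-point libraries (median 8.78%), with means of 7.05% ± 7.56 (SD, n = 10) and 7.96% ± 5.67 (SD, n = 7). Nearly all of that was 1 locus, piR_002643 at 5843705 to 5843732, which was the most abundant small RNA in the table and held 7.43% of all counts. Its level ran from 8218 to 204000 CPM at the start-point (median 31540) and from 1900 to 138700 CPM at the end-point (median 84040). The lowest value of all was in end-point library 1 and the 2 highest in start-point libraries 5 and 3. Its log2 fold change of 0.76 ± 0.97 (SE) had an adjusted p of 0.572 by edgeR, so no difference was detectable beyond the spread within each time point. With only the 3 shallow end-point libraries it was -1.04, an alternative added after the values were seen.

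Without piR_002643 the other 4 loci of the chromosome 3 block took 0.444% ± 0.484 (SD, n = 10) of start-point libraries and 1.25% ± 1.28 (SD, n = 7) of end-point libraries. They did not move alike. piR_000622 at 5843428 to 5843455 was called higher and is described with the other loci of its name below. piR_000620 at 5843782 to 5843811 ran from 335.5 to 10100 CPM at the start-point (median 591.7) and from 438.6 to 15390 CPM at the end-point (median 1887), with end-point library 7 and start-point library 3 highest. Its log2 fold change of 1.12 ± 0.80 (SE) was not called (adjusted p = 0.297, edgeR) and was -0.47 in male libraries alone. piR_000616 and piR_001570 had log2 fold changes of -1.21 ± 0.82 and -0.03 ± 0.66 (SE), also not called, with adjusted p of 0.265 and 0.977.

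The chromosome 18 block, on the minus strand from 54824345 to 54824734, held 1.39% of piRNA counts and the same names as part of the chromosome 3 block, piR_000620 and piR_000622. It took 0.122% ± 0.157 (SD, n = 10) and 0.210% ± 0.345 (SD, n = 7) of libraries, with end-point library 7 highest at 0.983%. The leading locus, piR_000620, ran from 90.3 to 3991 CPM at the start-point (median 244.5) and from 160.6 to 9834 CPM at the end-point (median 694.1). Its ranges overlapped, and its log2 fold change of 1.17 ± 0.85 (SE) was not called (adjusted p = 0.307, edgeR). Without end-point library 7 it was -0.06, in male libraries alone -0.83, and it was also negative without the 3 shallow libraries. The full value lay within 1 SE of the value for piR_000620 on chromosome 3, and each locus had its end-point maximum in library 7.

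The chromosome 2 block lies on the minus strand from 5296560 to 5296603, 44 bases in which 3 loci overlap each other. It held 1.51% of piRNA counts and took 0.140% ± 0.133 (SD, n = 10) and 0.158% ± 0.149 (SD, n = 7) of libraries. Its leading locus, piR_000616, ran from 88.1 to 2614 CPM at the start-point (median 468.6) and from 18.3 to 1694 CPM at the end-point (median 514.9). Start-point libraries 5 and 3 and end-point library 4 were highest, and the log2 fold change of 0.40 ± 0.77 (SE) was not called (adjusted p = 0.721, edgeR). It became negative when libraries were scaled by their totals alone, and was -0.25 without end-point library 4. piR_001570 had a log2 fold change of -0.51 ± 0.62 (SE) with an adjusted p of 0.550, and piR_000622 was called higher.

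The chromosome 17 block lies on the plus strand from 39454691 to 39455691 and held 1.85% of piRNA counts in 6 loci with 6 names, none of them shared with another block. Of the 5 groups it was the one with a lower mean share at the end-point, 0.240% ± 0.238 (SD, n = 10) against 0.0953% ± 0.0761 (SD, n = 7). Block shares were described and not tested, and the end-point values, from 0.00183% to 0.237%, overlapped the start-point values, from 0.0232% to 0.652%. Of its 5 tested loci 0 were called by edgeR, and 1, piR_000536, had an unadjusted p under 0.05 (p = 0.0219, adjusted p = 0.0627). piR_000619, the leading locus, ran from 87.5 to 3713 CPM at the start-point (median 672.4) and from 0 to 496.2 CPM at the end-point (median 152.3). Start-point libraries 2, 5, 9 and 3 were highest, end-point libraries 1 and 3 had no count, and the log2 fold change was -1.78 ± 0.88 (SE) with an adjusted p of 0.120. The other 3 tested loci had log2 fold changes between -0.08 and 0.31.

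**Figure D3:**
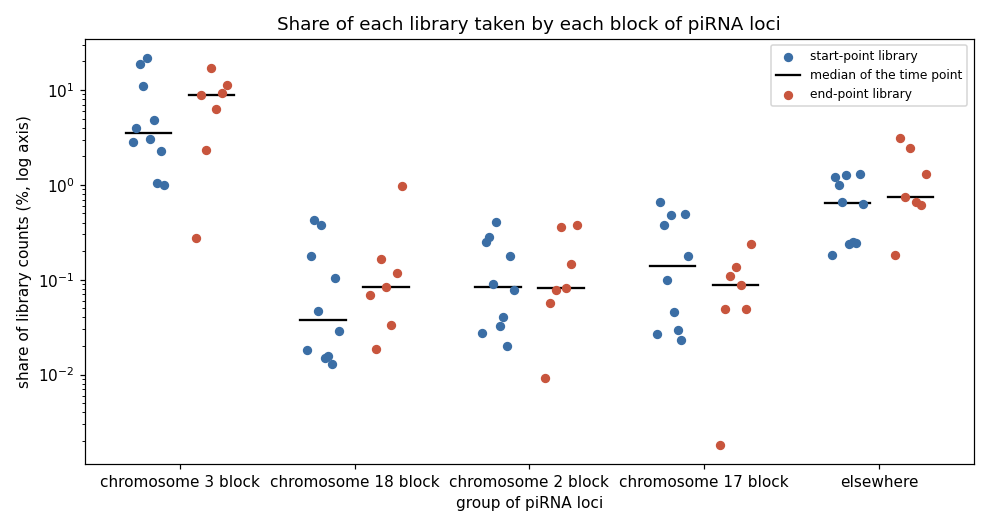
Share of each library's counts taken by each group of piRNA loci (log axis, in percent), 1 point per library, with the median of each time point as a black line. The chromosome 3 block lies above the other groups in each of the 17 libraries, and start-point and end-point values overlap in all 5 groups.

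The 32 loci outside the blocks held 10.2% of piRNA counts. They took 0.694% ± 0.459 (SD, n = 10) of start-point libraries and 1.30% ± 1.10 (SD, n = 7) of end-point libraries. Of the 18 tested 4 were called higher and 1 lower, beside 16.1% higher and 15.5% lower of all tested small RNAs. The end-point maximum, 3.15% in library 2, was mainly piR_002961 on chromosome 4 (93821215 to 93821245), with 27050 CPM in that library. At the start-point piR_002961 had 0 or 1 count in every library. At the end-point it had 4379 counts in library 2, 676 in library 4, 116 in library 6, 1 in library 5 and none in libraries 1, 3 and 7. Its high level was thus in 3 of 7 libraries from different mice by label, and the locus did not pass the filter of the test.

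piR_020492 on chromosome 11 (108827972 to 108827997, minus strand) gave the smallest p among the loci. It ran from 0 to 399.6 CPM at the start-point (median 122.6) and from 18.3 to 2276 CPM at the end-point (median 1291). End-point libraries 2 to 7 all lay above the highest start-point library, and library 1 lay within the start-point range. Its log2 fold change was 3.63 ± 0.77 (SE, adjusted p = 0.00156 by edgeR), and its level was higher at the end-point in each of the 5 mice with 1 library per time point. For mouse 1 the end-point libraries disagreed: 18.3 CPM in library 1 and 889.6 CPM in library 2, against 45.2 CPM at the start-point.

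piR_000691 has 4 loci on chromosome 8, all on the minus strand within 126446977 to 126494434, and they did not move alike. Locus 4, the last by position (126494409 to 126494434), ran from 0 to 98.3 CPM at the start-point (median 21.1) and from 0 to 407.2 CPM at the end-point (median 92.9). End-point libraries 7, 4 and 6 lay above every start-point library, and the log2 fold change was 2.89 ± 0.70 (SE, adjusted p = 0.00379 by edgeR). It was higher in the 5 mice with 1 library per time point, and in mouse 1 it went from 19.4 CPM to 0 in end-point library 1 and 55.6 CPM in library 2. Its counts were low, at most 45 in a library. Locus 3, at 0.78 ± 0.69 (SE) on the log2 scale, was not called (adjusted p = 0.402, edgeR). Loci 1 and 2 did not pass the filter: locus 1 had 0 to 308.5 CPM at the start-point and at most 8.44 CPM at the end-point, and locus 2 held counts in 2 libraries of each time point.

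piR_020554 on chromosome 2 (92351039 to 92351069, plus strand, far from the chromosome 2 block) was called higher, with its high values only in the 3 shallow end-point libraries. The start-point libraries ran from 10.7 to 683.8 CPM (median 128.1). End-point libraries 1, 3 and 7, those under 75000 counts, had 1680, 4053 and 2568 CPM. The other 4 end-point libraries lay between 24.7 and 84.4 CPM, within the start-point range. End-point libraries above and below 75000 counts were likewise apart for 29.5% of all small RNAs. The log2 fold change was 2.49 ± 0.77 (SE, adjusted p = 0.0174 by edgeR). Without the 3 shallow libraries the fold change was -0.86 on the log2 scale with an adjusted p of 0.361, and without end-point library 3 alone it was 1.96 with an adjusted p of 0.0552.

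piR_001538 on chromosome 6 (87920828 to 87920858, minus strand) was the only locus called lower. It ran from 129.0 to 783.3 CPM at the start-point (median 495.9) and from 0 to 160.6 CPM at the end-point (median 31.3). End-point libraries 1 and 3 to 7 lay below every start-point library, and library 2 overlapped the lowest start-point values. The log2 fold change was -1.94 ± 0.66 (SE, adjusted p = 0.0269 by edgeR). It was lower in the 5 mice with 1 library per time point, and in mouse 1 it went from 129.0 CPM to 0 in end-point library 1 and 160.6 CPM in library 2. Leaving out start-point library 2, 8 or 9 or end-point library 3, 4 or 7 took the adjusted p to between 0.0505 and 0.0767, and leaving out end-point library 2 moved the fold change to -2.94. Without the 3 shallow end-point libraries it was -1.14 with an adjusted p of 0.185.

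**Figure D4:**
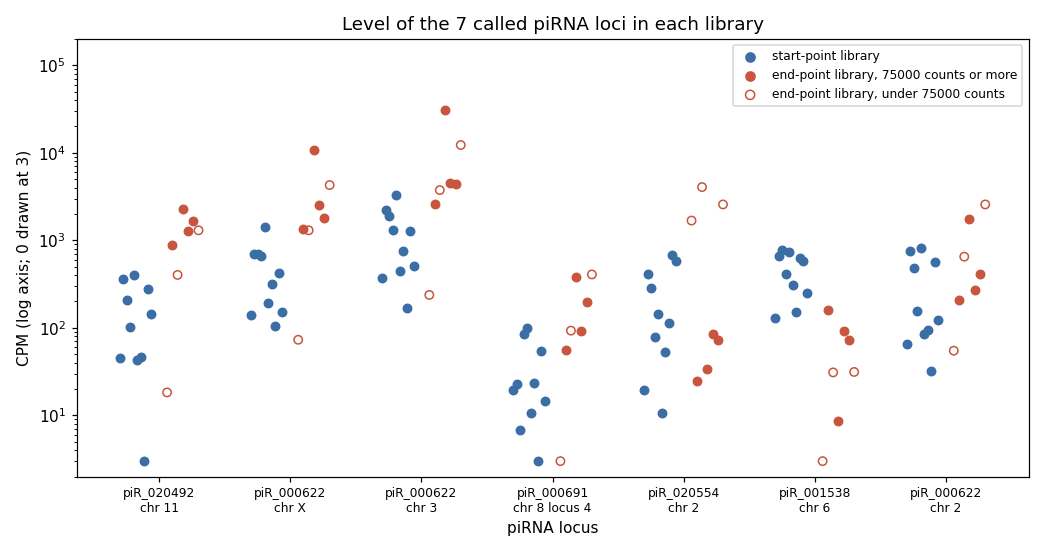
CPM (log axis, 0 drawn at 3) of the 7 called piRNA loci, in order of adjusted p, with 1 point per library and open red circles for the 3 end-point libraries under 75000 counts. For piR_020554 the 3 open circles lie above all other points and the filled red points lie within the start-point range. For piR_020492 and the chromosome 3 and X loci of piR_000622 the lowest end-point value is 1 of the open circles.

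Loci of the same name had the same length for each of the 10 shared names. How reads that match several places were assigned is not given in the sources used here, so shares of a name among its loci are uncertain and are given as deposited. piR_000622 had loci on chromosomes 2, 3, 18 and X, and 3 of the 4 were called higher. The chromosome 3 locus ran from 168.1 to 3308 CPM at the start-point (median 1020) and from 237.5 to 30530 CPM at the end-point (median 4429). End-point libraries 3 to 7 lay above every start-point library, and libraries 1 and 2 within the start-point range. Its log2 fold change was 3.52 ± 0.84 (SE, adjusted p = 0.00329 by edgeR).

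The chromosome X locus (112404287 to 112404314, minus strand) ran from 104.1 to 1409 CPM at the start-point (median 368.7) and from 73.1 to 10720 CPM at the end-point (median 1814). End-point libraries 4 to 7 lay above every start-point library, with library 4 highest, and library 1 lay below every one. The log2 fold change was 3.45 ± 0.79 (SE, adjusted p = 0.00264 by edgeR). The chromosome 2 locus (5296560 to 5296587) ran from 32.0 to 812.4 CPM at the start-point (median 139.9) and from 55 to 2568 CPM at the end-point (median 410.5). Only end-point libraries 7 and 4 lay above the start-point range, and the log2 fold change was 2.00 ± 0.71 (SE, adjusted p = 0.0336 by edgeR). Each of the 3 loci was higher in the 5 mice with 1 library per time point. In mouse 1 each was lower in end-point library 1 and higher in library 2 than at the start-point, at 237.5 and 2595 CPM against 374.2 CPM for the chromosome 3 locus.

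Leaving out end-point library 4 moved the fold changes of the chromosome 3, X and 2 loci of piR_000622 to 2.37, 2.51 and 1.43, with adjusted p of 0.0174, 0.0112 and 0.128. The chromosome 2 locus also lost its call, with adjusted p of 0.0509 to 0.0691, without start-point library 1, 4, 6, 7 or 10 or end-point library 7. It was not called under scaling by library totals alone either (1.42 on the log2 scale, adjusted p = 0.115).

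The chromosome 18 locus of piR_000622 (54824707 to 54824734, minus strand) did not follow the other 3. It ran from 16.0 to 517.5 CPM at the start-point (median 132.7) and from 0 to 342.2 CPM at the end-point (median 24.7). End-point libraries 1, 3 and 7 had no count, which allows up to 55, 92.8 and 47.0 CPM there, and the log2 fold change of -0.57 ± 0.80 (SE) was not called (adjusted p = 0.611, edgeR). Without end-point library 4 it was -1.95 (adjusted p = 0.0762), and without the 3 shallow libraries 0.34. Of the counts under this name it held 3.83% to 16.7% at the start-point and 0 to 1.18% at the end-point, and these ranges did not overlap as counted. In end-point library 1 the loci on chromosomes 2, 3 and X had only 3, 13 and 4 counts. With a count of 0 taken to allow 3, the share in that library could lie within the start-point range. Its ratios to the other 3 loci, computed with 0.5 added to each count, were the only 3 of the 24 same-name pairs whose ratios did not overlap between time points. The ratio of the chromosome 3 to the chromosome X locus, by contrast, ran from 1.59 to 3.33 at the start-point and from 1.78 to 3.00 at the end-point.

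**Figure D5:**
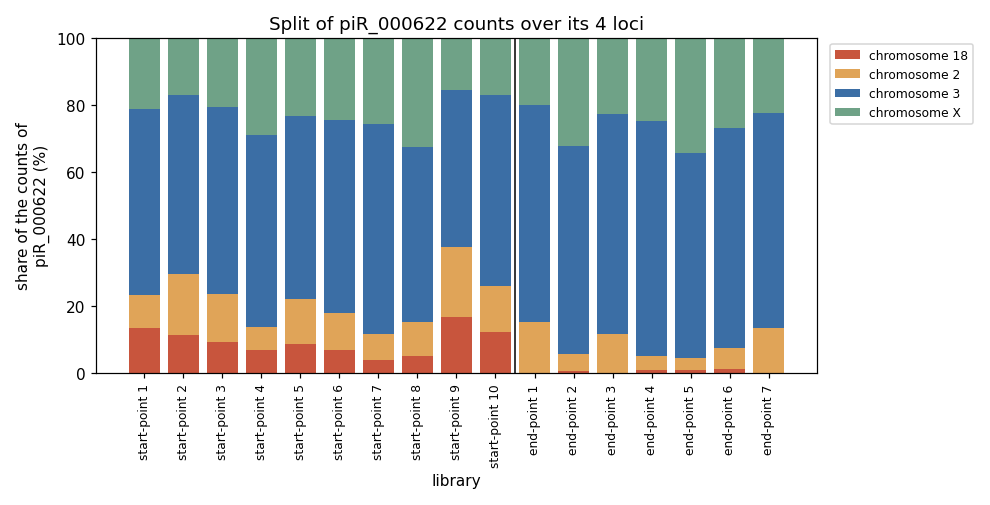
Share of the counts named piR_000622 at each of its 4 loci in each library, in percent, start-point libraries left of the line. The chromosome 18 share lies between 3.83% and 16.7% left of the line and between 0 and 1.18% right of it, and the chromosome 3 and X loci hold most of the counts in every library.

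The other shared names fell between near-equal counts and strongly unequal ones. piR_007729 had 500, 525 and 550 counts in all at its loci on chromosomes 17, 2 and 9, and its departure from an equal split over libraries was the smallest of the 10 names (chi-square per degree of freedom 1.73). Its loci had log2 fold changes of -0.79, -0.51 and -0.02, none called, and of -1.43, -1.19 and -1.26 without end-point library 4. piR_001570 was also close to equal, with 498 counts on chromosome 2 and 539 on chromosome 3. piR_000616 had 1575 and 1118 counts on the same chromosomes. piR_000620 had 2409 counts on chromosome 18 and 5485 on chromosome 3.

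piR_001538 had 468 counts on chromosome 18 and 676 on chromosome 6, where it was called lower. Its chromosome 18 locus (14136648 to 14136678) ran from 10.7 to 857.5 CPM at the start-point (median 212.4). At the end-point it ran from 0 to 556.0 CPM (median 13.2), with library 2 far above the others. Its log2 fold change was 0.01 ± 0.96 (SE, adjusted p = 0.996 by edgeR), and -3.18 with an adjusted p of 0.0123 without end-point library 2.

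piR_038323 had 678, 958 and 540 counts on chromosomes 13, 14 and 9, with log2 fold changes of 0.23, -1.59 and -1.25, none called. Its chromosome 13 fold change turned negative, to -0.77, under scaling by library totals alone, and was -0.01 without end-point library 2 and -0.65 without library 4. At the chromosome 14 locus end-point library 4 was highest, and without that library the fold change was -2.46 with an adjusted p of 0.0224. When the counts of each name were summed before the fit, 3 of 21 tested names were called (14.3%, beside 31.1% of all small RNAs in that fit): piR_020492, piR_020554 and piR_000622, the last with a log2 fold change of 3.33 ± 0.86 (SE, adjusted p = 0.00605 by edgeR).

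The coordinates of shared names mirror each other. The 3 names of the chromosome 2 block (piR_000616, piR_000622 and piR_001570) recur in the chromosome 3 block on the opposite strand, in reverse order and with spacing that differs by 0 bases. The chromosome 18 block holds piR_000620 and piR_000622 in the same mirrored arrangement, with spacing that differs by 6 bases from that on chromosome 3. Only the chromosome 3 block holds piR_002643. In all, 10 pairs of loci overlapped within a chromosome, among 14 loci, so reads at these positions can belong to either member. In the chromosome 3 block piR_000616 shared 29 bases with piR_001570 and 17 with piR_000622, yet the 3 log2 fold changes were -1.21, -0.03 and 3.52.

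The 15 loci outside the test were mostly at a few counts per library. Their values are descriptions, since the filter depends on the level in the libraries. piR_002738 on chromosome 1, singled out after its values were seen, was the only one of the 15 whose ranges did not overlap (beside 3.23% of all small RNAs outside the test): 19.4 to 648.8 CPM (2 to 90 counts) at the start-point and 0 to 17.1 CPM at the end-point. Only end-point library 4 had counts there, 2 of them. piR_021623 on chromosome 15, also singled out, had no count in any of the 10 start-point libraries and 14, 15 and 18 counts in end-point libraries 4, 5 and 7. With no filter 17 of all 48 loci were called by edgeR (35.4%), beside 31.3% of all 1487 small RNAs. Of these 15 loci 10 were called. The share called among all 217 small RNAs outside the test was not computed, so no excess is read from that count. The 10 include piR_002738 (log2 fold change -4.25), piR_001071 and piR_002961. Fold changes at loci with mostly 0 counts at a time point depend on the prior count.

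The same 6 mice gave libraries at both time points, and a fit with mouse identity as a replicate block changed most calls. That fit rests on these 6 mice, since mice with a start-point library only do not inform its time point effect. It called 1 of the 33 loci (3.03%), beside 6.06% of all 1270 small RNAs. Locus 4 of piR_000691 kept its call, at 3.06 on the log2 scale (adjusted p = 0.0499, edgeR). The other called loci had blocked fold changes of 3.94 for piR_020492 (adjusted p = 0.0533), 3.38, 3.31 and 2.10 for piR_000622 on chromosomes X, 3 and 2 (adjusted p = 0.0505, 0.0699 and 0.0972), 1.86 for piR_020554 (adjusted p = 0.218) and -2.41 for piR_001538 on chromosome 6 (adjusted p = 0.152). All 7 kept their direction. The call of piR_000691 depended on end-point library 2: without that library the blocked fit gave 2.84 (adjusted p = 0.0836), and piR_001538 on chromosome 6 was then called, at -3.35 (adjusted p = 0.0308). That fit called 2 of 35 loci, beside 5.35% of all small RNAs.

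No locus was called for sex. Among 46 loci tested for female against male libraries with time point as a covariate, 0 were called by edgeR, beside 0% of 1462 small RNAs. At an unadjusted p under 0.05 there was 1 locus, piR_030545 on chromosome 4, beside 125 small RNAs (8.55%), and the DESeq2 Wald test called 0 loci, beside 2.35% of all small RNAs. The lowest adjusted p of a locus was 0.540. The comparison rests on 5 female libraries from 3 mice and 12 male libraries from 7 mice, and libraries of the same mouse entered the fit as independent, which makes its p-values too small where such libraries resemble each other.

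miRNAs known from germ cells were measured in the same libraries and are described beside the piRNA loci. The cells of origin of these miRNAs and of the piRNA reads were not tested. The list held 30 mature miRNAs, of which 23 were tested, 3 were called higher and 3 lower, 26.1% beside the 31.6% of all tested small RNAs. miR-871-5p, miR-449c-5p and miR-742-3p were higher, with log2 fold changes of 2.35 ± 0.60, 1.90 ± 0.57 and 1.49 ± 0.51 (SE). miR-463-5p, miR-34b-3p and miR-743b-5p were lower, with -2.52 ± 0.97, -1.95 ± 0.69 and -1.81 ± 0.56 (SE). The miR-34b and miR-449c families are also made in ciliated epithelia. No miRNA of the list was at 0 in every library, and its summed level was 6361 to 19960 CPM at the start-point and 6904 to 12640 CPM at the end-point. In the fit with the replicate block 0 of the list were called by edgeR and 3 had an unadjusted p under 0.05.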

How the data were processed

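The values are counts, whole numbers for each small RNA in each library, which the authors deposited as raw read counts with no normalization recorded. Per the labels' protocols, exosomes were precipitated from fecal homogenate and libraries made with a kit that adds unique molecular identifiers. Whether the identifiers were used, how reads matching several loci were assigned, and the aligner are not given in the sources used here. GRCm38 and bcl2fastq appear in the submitters' processing notes without a role.

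Differences were fitted on all small RNAs with the glmQLFit and glmQLFTest functions of edgeR 4.0.16 under R 4.3.3 (TMM factors, filterByExpr, Benjamini-Hochberg adjustment, call at an adjusted p under 0.05). CPM values are counts over the library total and fold changes include the TMM factors, which ran from 0.381 (end-point library 2) to 1.90 (start-point library 10). Standard errors are the fold change over the square root of F. A locus belonged to a block when it started within 0.1 Mb of the stated position. Alternatives used DESeq2 1.42.0 and limma 3.58.1. Intervals are not given, since no share of a single library was tested, and a count of 0 was taken to allow 3 counts, for counting error only.

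Loci named in full were those called, the 5 with the highest mean CPM, the highest of each group, and names with a summed mean over 100 CPM. The members, lists and rules were chosen with earlier results of these data known. Libraries are separate by label, and p-values measure the spread between them. The reported time point fit held no mouse term, and libraries of the same mouse entered it as independent, end-point libraries 1 and 2 included. With the end-point libraries of mouse 1 summed, 9 of 35 loci were called by edgeR, beside 32.5% of all small RNAs in that fit. Libraries were paired by the labelled mouse only for within-mouse directions, the replicate block and the correlation that follows. Deviations from the time point means correlated at a mean r of 0.094 over 7 library pairs of the 6 mice. Over all 136 library pairs the smallest chi-square per degree of freedom was 10.1, so none was counted as a duplicate. The scripts were tested on simulated counts of 1270 small RNAs: the time point test recovered 72.8% of changes of 2 and 98.9% of changes of 4 on the log2 scale, with 2.4% of calls false, and the sex test 48% and 100%, with 0.7% false. Simulated libraries were drawn independently, without shared mice and without a difference between shallow and deeper end-point libraries. These rates therefore check the scripts and are not error rates of the reported calls.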

Additional observations from a re-analysis of the deposited data

Results flagged for a closer look

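In 17 of 64 sets of values (each named locus and each group's share, at each time point) the highest library lay apart from the others by Dixon's criterion. Chance meets it in about 1 of 20 sets where values are normally distributed. The CPM values here were skewed, often with zeros, and loci with a shared name are not independent. No excess over chance is therefore read from the 17 sets. Of these, 7 were in end-point library 4: 342.2, 30530 and 10720 CPM for piR_000622 on chromosomes 18, 3 and X, 838.5, 393.6 and 239.6 CPM for piR_038323 on chromosomes 13, 14 and 9, and 658.8 CPM for piR_007729 on chromosome 9. End-point library 7 had 4: 9834 and 15390 CPM for piR_000620 on chromosomes 18 and 3, 501.1 CPM for locus 3 of piR_000691, and a chromosome 18 block share of 0.983%. End-point library 2 had 2, with 27050 CPM for piR_002961 and 556.0 CPM for piR_001538 on chromosome 18. Start-point library 5 had 2817 CPM for piR_000616 on chromosome 3 and 1409 CPM for piR_000622 on chromosome X. Locus 2 of piR_000691 stood apart at 74.3 CPM in start-point library 3 and at 61.9 CPM in end-point library 3. The nearest other library had 12250 CPM for the chromosome 3 locus of piR_000622 and 5784 CPM for piR_002961.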

How the results depend on the processing

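The count of called loci (7 in the reported fit) was 17 of 48 with no filter, 15 of 48 by the DESeq2 Wald test, 13 of 42 without the 3 end-point libraries under 75000 counts, 10 of 33 with library totals, 6 of 33 by limma-voom, 3 of 30 in male libraries alone, and 3 of 21 names with the loci of a name summed. Over all small RNAs the same fits called 31.3%, 37.3%, 28.1%, 35.1%, 28.4%, 12.9% and 31.1%. Scaling by library totals shifted the median of all small RNAs by -0.49 (log2), and scaling on miRNAs alone by 0.12. With mouse identity as a replicate block 1 locus was called, higher at the end-point. When end-point library 2 was also left out, 2 loci were called, each lower at the end-point. Same-mouse pairs had correlations from -0.072 to 0.26. The germ-cell miRNA count went from 6 to 0 under the block. Leaving out 1 library at a time gave 5 to 9 called loci. An alternative chosen after seeing the data, with only the 3 shallow end-point libraries, gave 11 of 41 loci called, beside 34.9% of all small RNAs, 2 higher and 9 lower, and turned piR_038323 on chromosome 13 to -5.73 and piR_001538 on chromosome 18 to -8.02, values that depend on the prior count because these libraries held 0 or 1 count there. Fold changes also turned for piR_001538 on chromosome 18 when 1 library was left out, from -3.18 to 0.43, and for piR_020554, to -0.86 without the shallow libraries. The cause was not tested. Of the other fold changes of named loci under the alternatives, 683 kept their side of the threshold, 39 fell short of it and 9 newly passed it, where direction was followed for called values only. Of the 17 named loci that were tested and not called, 10 turned direction under at least 1 alternative and 7 under none; of the 7 called, piR_020554 alone turned. Block shares are counts over library totals, so only alternatives that changed the set of libraries could move them. They moved by less than 1 SD. Leaving out a few libraries can hardly move a mean further, so this does not test how stable the shares are. At 32320 counts in the shallowest library, a locus below 92.8 CPM cannot be told from 0 there.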

Other observations

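Of the loci called, 8 of 15 were lower under the DESeq2 Wald test and 6 of 17 with no filter, against 1 of 7 in the reported fit. The Wald and no-filter fits also took in the loci outside the reported test. Directions over all called small RNAs were not computed for them, while in the reported fit 16.1% of all tested small RNAs were higher and 15.5% lower. No change of direction is therefore read from these counts. Among loci with few counts, piR_001071 on chromosome 5 and piR_002738 on chromosome 1 were lower at the end-point in the 5 mice with 1 library per time point and at 0 in each end-point library of mouse 1, and piR_002962 on chromosome 5 was lower in 4 of the 5. In 3 of the 5 mice piR_002961 was higher and in 1 lower. Some of these directions rest on 1 count against 0, which cannot be told from no difference. That was so in mouse 7 for piR_001071, piR_002962 and piR_002961, and in mouse 3 for piR_002961. End-point libraries above and below 75000 counts did not overlap for 7 of the 48 loci (14.6%), beside 29.5% of all 1487 small RNAs. These were piR_020554, higher in the shallow libraries, and piR_000622 and piR_001538 on chromosome 18, the 3 loci of piR_038323 and piR_002961, higher in the deeper ones, where most shallow values were 0.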
